A study of Mus musculus with 12 samples.

Results

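Genes for the proteins of the cytosolic ribosome and of the mitochondrial ribosome were examined in adrenal tissue of KK/HlJ (KK) and C57BL/6J (C57) mice of both sexes. A gene belonged to the set when its symbol began with Rpl or Rps (cytosolic) or with Mrpl or Mrps (mitochondrial) and a digit. Pseudogenes and the Rps6k kinases were left out, and the values used here had to hold at least 1 probeset annotated to that gene alone. These rules gave 55 of the 6986 genes measured here. Of the 55, 30 were cytosolic (20 of the large and 10 of the small subunit) and 25 mitochondrial (16 large and 9 small). Of 7310 probesets annotated to 1 gene and placed by RefSeq, 7277 lay on chromosomes 1 and 10 to 15. Most ribosomal protein genes were therefore not analysed, and all genes below means these 6986 or the tested part of them. The brightest probeset stood for a gene. All mice ate standard chow and were killed at 21 weeks of age after metabolic and behavioral testing. The groups were KK males (KK-M), KK females (KK-F), C57 males (C57-M) and C57 females (C57-F). KK is an inbred strain with polygenic obesity and diabetes, so a strain difference cannot be assigned to any 1 gene. RNA of a group was pooled and hybridized to 3 arrays, and every p-value below therefore measures the spread between arrays of 1 pool and not between mice. The design asks how strain and sex, and the combination of them, set adrenal mRNA levels.

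Cytosolic ribosomes translate all mRNA made in the nucleus, and their proteins are made in matched amounts from some of the most abundant mRNAs of a cell. In vertebrates these mRNAs begin with a C and a run of pyrimidines, the 5′ terminal oligopyrimidine (TOP) tract, through which mTORC1 and Larp1 set their translation. Mitochondrial ribosomes translate only the few respiratory chain subunits encoded in mitochondrial DNA, and their own proteins are made in the cytosol and imported. In the adrenal cortex, mitochondria also hold the first and last steps of corticosteroid synthesis.

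The starts of a few of these genes are printed to show where a TOP tract is and is not read at the annotated start. Each line gives 10 bases before and 20 bases from the annotated start (RefSeq, GRCm38.p6, gene strand), and capitals mark the longest run of at least 5 C or T that opens with C within 10 bases of the start. The first 4 are cytosolic genes whose run covers the annotated start, and Rps12 and Rpl9 follow because the results below turn on them. The last 3 are mitochondrial genes.
Rpl28 (chr7:4792955-4792984, plus strand): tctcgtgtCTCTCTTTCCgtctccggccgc
Rpl15 (chr14:18270967-18270996, minus strand): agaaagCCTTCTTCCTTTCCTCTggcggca
Rpl35 (chr2:39005112-39005141, minus strand): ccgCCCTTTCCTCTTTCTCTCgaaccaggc
Rpl38 (chr11:114668570-114668599, plus strand): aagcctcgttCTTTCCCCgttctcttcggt
Rps12 (chr10:23787190-23787219, minus strand): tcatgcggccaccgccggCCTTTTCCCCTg
Rpl9 (chr5:65391412-65391441, minus strand): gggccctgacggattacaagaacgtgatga
Mrps9 (chr1:42851223-42851252, plus strand): ggtctgcgcctgcgcagtctccaggctcca
Mrps24 (chr11:5707682-5707711, minus strand): gCCTTCCTgcggctgcgcactgacgcgtcc
Mrpl52 (chr14:54426899-54426928, plus strand): gggccacgcccaCTTCCggttcccttgctc

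A promoter entry was found for 22 of the 30 cytosolic and 21 of the 25 mitochondrial genes. A C followed by at least 4 further C or T stood exactly at the annotated start in 6 of the 22 cytosolic entries (27.3%), in 0 of the 21 mitochondrial entries, and in 379 of 17492 protein-coding genes (2.17%). With 10 bases allowed to either side, the shares were 59.1% (13 of 22), 61.9% (13 of 21) and 31.1%. The ETS factor motif CCGGAAG, searched on both strands of 300 bases around the start, was present in 50% of the cytosolic, 33.3% of the mitochondrial and 11.9% of all entries. Its reverse complement opens with CTTCC, which also counts as a pyrimidine run, as in Mrpl52. The YY1 motif AAGATGGC was present in 0 of 22 cytosolic and 6 of 21 mitochondrial entries (28.6%) against 3.21% of all, the 6 being Mrpl32, Mrpl36, Mrpl42, Mrps24, Mrps27 and Mrps7. These matches describe letters only and no factor was measured at them.

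The tissue carried adrenal markers in every group. Of 12 listed adrenal steroid cell genes, 2 were measured. Cyp11b1, the 11-beta-hydroxylase that makes corticosterone, averaged 12.46 in KK-M, 12.47 in KK-F, 12.59 in C57-M and 12.83 in C57-F (log2 RMA intensity, the unit of every level below). Cyp11b2 averaged 10.10, 9.10, 10.22 and 9.37 in these groups and was higher in males of both strains by the criterion defined below. Both genes together averaged 10.69 to 10.88 in KK-F against 11.08 to 11.42 in all other arrays. Marker lists of other cells moved with the groups. The 16 measured skeletal muscle genes of 20 listed averaged 5.68 to 5.83 in KK-M against 3.86 to 4.10 in all other arrays, and 12 of 14 tested rose in KK-M v C57-M by the criterion defined below. The 16 measured hepatocyte genes of 20 averaged 3.91 to 4.58 in KK against 5.82 to 6.38 in C57. The 6 measured adipocyte genes of 14 averaged 6.02 to 6.09 in KK-F against 6.85 to 7.34 elsewhere. Akr1c18, a marker of the X-zone, the transient inner cortex of mice, averaged 4.87 in KK-M, 12.27 in KK-F, 3.25 in C57-M and 8.29 in C57-F, and the other measured X-zone gene of 3 listed, Thrb, was likewise highest in KK-F. The 6 measured chromaffin genes of 13 averaged 7.47 to 7.85 in KK against 6.62 to 7.05 in C57, and all 6 were higher in KK of each sex without overlap. All 4 tested macrophage genes of 10 listed differed in KK-F v C57-F (3 higher, 1 lower), and the list averaged 7.47 to 7.72 in KK, 8.26 to 8.33 in C57-M and 7.16 to 7.33 in C57-F. The 6 measured lymphocyte genes of 12 averaged 3.46 to 3.78 in KK, 3.92 to 4.32 in C57-M and 3.65 to 3.78 in C57-F. The muscle myosin Myh8 averaged 7.29 in KK-M against 2.75 to 2.89 in the other groups, and the liver gene Serpina1d 3.60 in KK-M and 2.67 in KK-F against 7.72 in C57-M and 8.70 in C57-F. The part of these cells and tissues in the results below was not tested, and fewer cells of a type cannot be told apart from less RNA per cell. Median intensity of the 12 arrays ranged from 3.88 to 3.99 over all probesets.

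Levels within the cytosolic set spanned the array's range. Mean values ran from 2.22 (Rps26) to 11.86 (Rpl41), and 9 of 30 cytosolic genes averaged under 4. A probeset's level is not comparable with that of another, so these low values say how the probesets read and not how much mRNA was present. The mitochondrial genes ranged from 3.44 to 8.19. A gene was tested when its mean reached 4 in at least 1 group, which left out Rpl10l, Rpl32l, Rpl37, Rpl7, Rps18, Rps26, Rps29 and Mrpl27. In all, 23 cytosolic and 24 mitochondrial genes were tested among 4414.

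Differentially expressed genes (DEGs) were those that changed at least 1.4-fold with a limma adjusted p under 0.05 (Benjamini-Hochberg over all genes and the 4 comparisons). Few ribosomal protein genes passed. In KK-M v C57-M there were 2 cytosolic DEGs of 23 (1 higher, 1 lower in KK-M) and 1 mitochondrial DEG of 24 (lower), while 20.4% of all tested genes were DEGs (7.05% higher and 13.4% lower). In KK-F v C57-F there were 4 cytosolic (1 higher, 3 lower) and 2 mitochondrial DEGs (1 higher, 1 lower), against 18.6% of all genes (9.56% higher and 9.06% lower). In KK-M v KK-F the 3 cytosolic DEGs were all higher and the 3 mitochondrial DEGs all lower in males, against 18.8% (7.27% higher and 11.6% lower). In C57-M v C57-F no member was a DEG, against 7.07% of all genes (4.33% higher and 2.74% lower). There, limma gave an unadjusted p under 0.05 to 3 cytosolic and 1 mitochondrial genes, and an adjusted p under 0.05 without the fold criterion to Rpl21 and Mrps24. In shares of the tested genes, the cytosolic set had 8.7%, 17.4%, 13% and 0% DEGs and the mitochondrial set 4.17%, 8.33%, 12.5% and 0%, in the order of the 4 comparisons.

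The mitochondrial set lay slightly lower in KK-M on the deposited scale. In KK-M v C57-M its median log2 difference over all 25 genes was −0.17, with 6 genes above and 19 below 0, against 0.03 for the cytosolic set (17 above, 13 below) and 0.01 for all 6986 genes, and it was −0.09 after renewed quantile normalization. Among tested genes alone the medians were −0.20 (mitochondrial), 0.01 (cytosolic) and −0.07 (all). Values of KK-M and C57-M did not overlap for 7 mitochondrial genes lower and 1 higher, and for 4 cytosolic genes lower and 6 higher, against 20.9% of all measured genes lower and 15.2% higher. In KK-F v C57-F the medians were −0.10 (mitochondrial), −0.04 (cytosolic) and 0.01 (all). After renewed quantile normalization the mitochondrial median in KK-F v C57-F was −0.14, lower than in KK-M v C57-M, with 17 of 25 genes below 0 in each. On the deposited scale, 4 mitochondrial and 4 cytosolic genes lay without overlap higher in KK-F v C57-F, and 6 of each set lower, against 18.5% and 16.7% of all genes. Between the KK sexes the medians were −0.11, 0.00 and 0.00, and the mitochondrial median became 0.02 after renewed quantile normalization. On the deposited scale and without overlap, 1 mitochondrial and 7 cytosolic genes were higher and 8 and 2 lower in KK-M than KK-F, against 14.1% and 19.8% of all genes. In C57-M v C57-F the mitochondrial median was 0.03 and the cytosolic 0.00, with 3 genes of each set higher and 1 and 3 lower without overlap, against 13% and 12% of all genes. By array, the mitochondrial median deviation from each gene's 12-array mean was −0.13 to −0.12 in KK-M, −0.04 to 0.05 in KK-F, −0.01 to 0.06 in C57-M and −0.03 to 0.10 in C57-F. On the deposited scale the KK-M arrays thus stood below all others. The difference between both sets was not tested. How DEGs split by direction depended on scaling: 34.5% of all DEGs in KK-M v C57-M were higher, and 49.5% after renewed quantile normalization. Renewed quantile normalization and median centring, here and below, used only the 16378 probesets held here and not whole arrays. Between the KK sexes the shares were 38.6% and 61.4%.

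**Figure D1:**
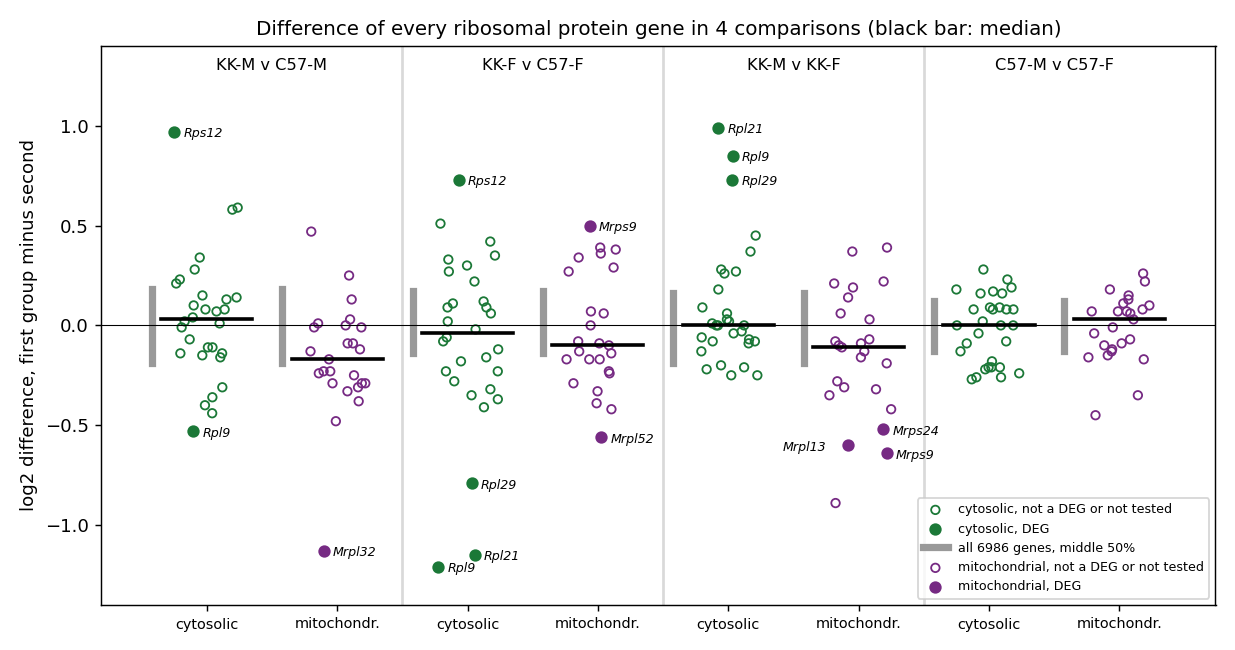
Log2 difference of each of the 55 ribosomal protein genes in 4 comparisons, first group minus second, with cytosolic genes in green and mitochondrial genes in purple. Filled points are DEGs, black bars are set medians and grey bars span the middle 50% of all 6986 genes. Most members lie near 0, and the mitochondrial median of −0.17 in KK-M v C57-M is the lowest of the 8 on the deposited scale. After renewed quantile normalization it was −0.09, against −0.14 in KK-F v C57-F.

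Rps12, a protein of the small subunit's head, was the cytosolic gene that rose in KK of both sexes. It read 8.40, 8.48 and 8.30 in KK-M and 8.46, 8.31 and 8.40 in KK-F, against 7.44, 7.43 and 7.38 in C57-M and 7.67, 7.51 and 7.79 in C57-F. All 6 KK arrays were above all 6 C57 arrays, and the KK sexes overlapped. The log2 difference was 0.97 ± 0.09 in males (SE, 1.96-fold, limma adjusted p = 5.1e-06) and 0.73 ± 0.09 in females (1.66-fold, adjusted p = 5.6e-05). Its probeset is numbered among genes of chromosome 10, where RefSeq places Rps12. The call held under every alternative run.

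Rps19, mutated in human Diamond-Blackfan anemia and named after its values were seen, was also higher in KK of both sexes, by a smaller step. It read 7.72, 7.74 and 7.75 in KK-M and 7.60, 7.63 and 7.71 in KK-F, against 7.54, 7.52 and 7.31 in C57-M and 7.43, 7.36 and 7.34 in C57-F. The strain differences of 0.28 ± 0.08 and 0.27 ± 0.08 passed on p (adjusted p = 0.021 and 0.026) and not on fold (1.22 and 1.21). All 6 KK arrays were above all 6 C57 arrays for Rps12, Rps19 and Rpl41 among the 30 cytosolic genes and for none of the 25 mitochondrial genes, against 4.17% of all genes. They were all below for Rpl21 and Mrpl57, against 6.56% of all genes. Among the other small subunit genes, Rps23 and Rps15 gave 0.58 ± 0.24 and 0.59 ± 0.36 in KK-M v C57-M (adjusted p = 0.088 and 0.25). Rps15 read 5.12, 3.66 and 3.80 in KK-M against 4.02, 3.38 and 3.41 in C57-M, so 1 array carried its difference. The mean of Rps15 reached 4 only in KK-M (4.19), so it was tested through that group.

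The 3 cytosolic DEGs lower in KK-F v C57-F (9.06% of all tested genes were lower) were Rpl21, Rpl29 and Rpl9. All 3 were of the large subunit, of which 16 genes were tested against 7 of the small subunit. A difference between the subunits was not tested. The probesets of all 3 are numbered among genes of another chromosome, as described below. Of the 10 measured small subunit genes, 3 lay below 0 in that comparison and 0 were DEGs lower in KK-F. Rpl21 read 10.28, 10.48 and 10.47 in KK-F, against 11.51, 11.58 and 11.60 in C57-F, and 11.37, 11.47 and 11.37 in KK-M against 11.86, 11.84 and 11.82 in C57-M. No 2 groups overlapped. It fell in KK-F by 1.15 ± 0.08 on the log2 scale (2.22-fold, adjusted p = 4.3e-07). In KK-M v C57-M the difference was −0.44 ± 0.08 (adjusted p = 0.0013), short of the fold criterion, and in KK-M v KK-F it was 0.99 ± 0.08 (1.99-fold, adjusted p = 1.6e-06).

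Rpl29, whose loss in mice gives small animals with fragile bones, read 10.39, 10.29 and 10.32 in KK-F, against 11.12, 11.09 and 11.17 in C57-F. It read 11.05, 11.13 and 11 in KK-M and 11.29, 11.19 and 11.13 in C57-M, which did not reach the KK-F range. The difference was −0.79 ± 0.08 in KK-F v C57-F (1.73-fold, adjusted p = 9.7e-06) and 0.73 ± 0.08 in KK-M v KK-F (1.65-fold, adjusted p = 2e-05). In males the strain difference was −0.14 ± 0.08 (adjusted p = 0.21).

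Rpl9 was a DEG in 3 comparisons. It read 6.26, 6.26 and 6.05 in KK-M, 5.0, 5.52 and 5.50 in KK-F, 6.63, 6.86 and 6.67 in C57-M and 6.26, 6.58 and 6.82 in C57-F. The KK-F arrays stood below all others, and the C57 sexes overlapped. Its differences were −0.53 ± 0.16 in males (1.44-fold, adjusted p = 0.021), −1.21 ± 0.16 in females (2.31-fold, adjusted p = 8.4e-05) and 0.85 ± 0.16 in KK-M v KK-F (1.80-fold, adjusted p = 0.0012). The call in males was lost without KK-M replicate 3 or C57-M replicate 2 (−0.46 in each case) and after quantile normalization (−0.41).

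Rpl28, named after its values were seen, was also lowest in KK-F, below the fold criterion. It read 11.17, 11.28 and 11.26 in KK-F against 11.62, 11.62 and 11.68 in C57-F, and 11.66, 11.73 and 11.66 in KK-M against 11.72, 11.67 and 11.60 in C57-M. The difference was −0.41 ± 0.08 in KK-F v C57-F (1.33-fold, adjusted p = 0.0013). The 3 KK-F arrays lay below all 9 others in 4 of 30 cytosolic genes (Rpl21, Rpl28, Rpl29 and Rpl9) and in 1 of 25 mitochondrial genes (Mrpl10), against 4.67% of all genes, and above them in Mrpl13 and Mrps9, against 7.29%. The 3 KK-M arrays lay above the rest in Rps19 and below in Mrps24 and Mrps7 (4.47% and 7.46% of all genes). The 3 C57-M arrays lay above in Rpl21, Rpl38 and Mrpl10 and below in Rps12 (5% and 2.05%), and the 3 C57-F arrays above in no member and below in Rpl41 (2.61% and 3.09%). Rpl15 (−0.35 ± 0.10, adjusted p = 0.018) and Rpl35 (−0.32 ± 0.11, adjusted p = 0.043), also named after their values were seen, passed on p alone. Rpl38, which in mice is needed for translation of Hox mRNAs, was on average 10.41 in KK-M and 10.48 in KK-F, against 10.73 in C57-M and 10.50 in C57-F. Its difference in males was −0.31 ± 0.09 (adjusted p = 0.015, 1.24-fold).

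**Figure D2:**
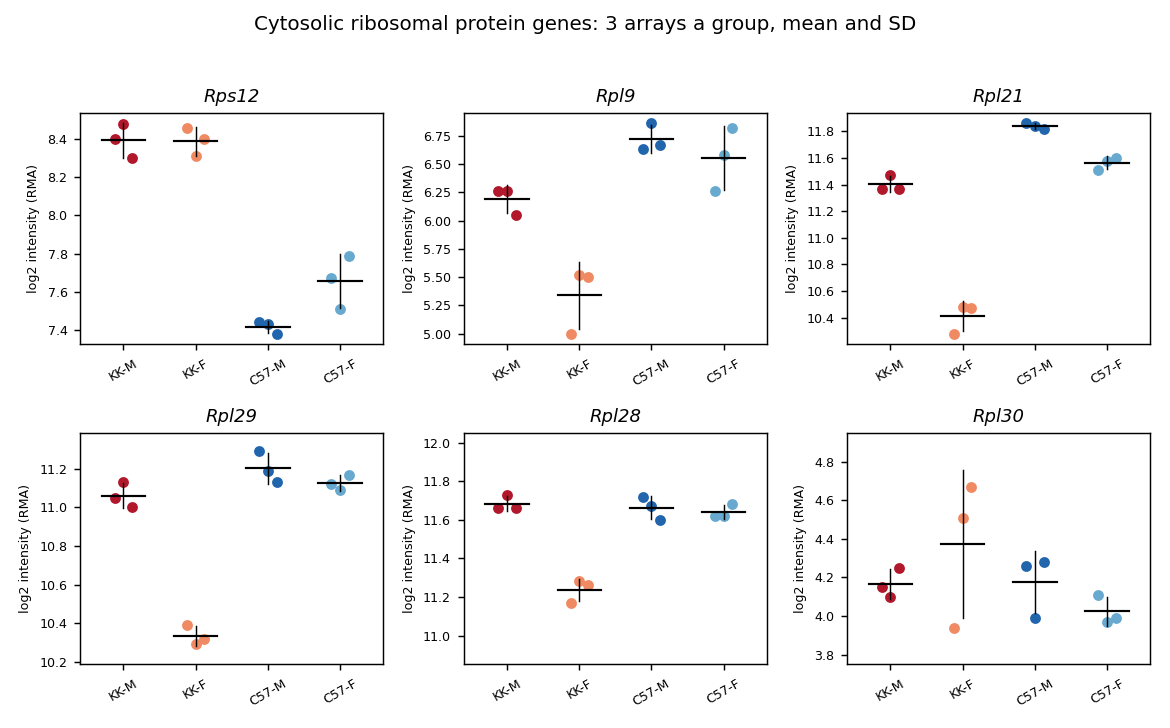
Log2 RMA intensity of 6 cytosolic ribosomal protein genes on each of the 12 arrays (points), with the group mean (bar) and SD (line) and a separate vertical scale per gene. Rps12 was higher in both KK groups, Rpl21, Rpl29, Rpl9 and Rpl28 were lowest in KK-F, and the groups overlapped for Rpl30.

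In the 3 cytosolic DEGs lower in KK-F v C57-F, the probeset's number and the gene's chromosome did not match. For 11 of the 30 cytosolic genes and none of the mitochondrial genes, the probeset used is numbered among probesets of a chromosome other than the one where RefSeq places the gene, which is the case for 52 of 7358 probesets annotated to 1 gene. The 11 are Rpl15, Rpl21, Rpl23a, Rpl28, Rpl29, Rpl35, Rpl41, Rpl9, Rps18, Rps19 and Rps3a1. Cytosolic ribosomal protein genes have many processed copies across the genome, and which transcript such a probeset detects cannot be told apart here. Of the 10 tested, 3 were DEGs in KK-F v C57-F, all lower (9.06% of all tested genes), and the median of the 11 was −0.32, or −0.15 after quantile normalization. Of the 11, 5 lay above 0, among them Rps3a1 (0.42), Rps19 (0.27) and Rpl41 (0.22). Of the 13 tested genes whose probesets are numbered among genes of their own chromosome, 1 was a DEG (Rps12, higher). The median of all 19 such genes was −0.02, with 9 above and 10 below 0. Between the KK sexes the medians were 0.28 and −0.06, with 3 and 0 DEGs. Without the 11 genes the cytosolic DEG counts were 1, 1, 0 and 0 in the 4 comparisons, a division made after the data were seen. At an unadjusted p under 0.05 the whole cytosolic set had 7, 12, 7 and 3 of 23 genes, against 2048, 1918, 1980 and 1116 of all 4414.

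Probesets of the same gene did not always move together. Rpl41, which encodes the shortest ribosomal protein, had 4 probesets. The brightest gave 0.14 in males and 0.22 in females (KK minus C57) and one numbered among genes of its own chromosome 10 gave 0.12 and 0.13. Another bright one, numbered among genes of chromosome 13, gave −0.35 and −0.34. The dimmest, also numbered among genes of chromosome 10, gave −0.36 and −0.01. The pairs of probesets of Rpl23a and of Rps19 held identical values and are 1 measurement each. For Mrpl10, a protein of the large subunit's stalk, the second probeset gave −0.15 in females where the brightest gave −0.42, and for Mrpl12, which also binds mitochondrial RNA polymerase, 0.06 against −0.13. For Mrpl36 the second probeset gave 0.26 in males where the brightest gave −0.09.

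Among the mitochondrial small subunit genes, every one of the 9 read lower in males when the KK sexes were compared, with differences from −0.64 to −0.08 and a median of −0.32. The median over all tested genes was −0.06 in that comparison. After renewed quantile normalization 3 of the 9 were above 0 and the median was −0.20, and with median centring 1 was above 0 and the median was −0.24. Mrps9 and Mrps24 were DEGs, against 11.6% of all tested genes lower in KK-M. The same 9 genes had a median of 0.29 in KK-F v C57-F (6 above 0) and of −0.12 in KK-M v C57-M (2 above 0). Over all tested genes these medians were 0.03 and −0.07. A difference between the subunits was not tested.

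Mrps9 read 5.94, 5.93 and 6.03 in KK-F, above all 9 other arrays. The others were 5.26, 5.30 and 5.42 in KK-M, 5.13, 5.55 and 5.32 in C57-M and 5.52, 5.40 and 5.48 in C57-F, which overlapped. The difference was 0.50 ± 0.10 in KK-F v C57-F (1.42-fold, adjusted p = 0.0024), just past the fold criterion, and −0.64 ± 0.10 in KK-M v KK-F (1.56-fold, adjusted p = 0.00042). The first call was lost without KK-F replicate 3 or C57-F replicate 2 (0.47 each) and under either other scaling (0.42 and 0.46), and the second held throughout.

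Mrps24 was lower in males of both strains. It read 6.30, 6.12 and 6.33 in KK-M against 6.82, 6.83 and 6.65 in KK-F, and 6.42, 6.58 and 6.46 in C57-M against 6.90, 6.83 and 7.08 in C57-F, with no overlap between the sexes. The difference of −0.52 ± 0.10 in KK (1.43-fold, adjusted p = 0.0014) was called and the −0.45 ± 0.10 in C57 (1.37-fold, adjusted p = 0.0034) was not, and their difference was −0.06 ± 0.14 (adjusted p = 0.79). The call in KK was lost without KK-M replicate 2 (−0.45) or KK-F replicate 2 (−0.48) and under either other scaling. Mrps36, counted among the 9 small subunit genes by its symbol, is now known as a subunit of the 2-oxoglutarate dehydrogenase complex. It gave 0.03 in males and 0.29 in females (adjusted p = 0.9 and 0.12), and its mean reached 4 only in KK-F (4.10).

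In the mitochondrial large subunit the DEGs were single genes. Mrpl13 read 5.12, 5.53 and 4.89 in KK-M against 5.94, 5.61 and 5.79 in KK-F, without overlap, and fell in males by 0.60 ± 0.14 on the log2 scale (1.51-fold, adjusted p = 0.0066). The call was lost without KK-M replicate 3 (−0.45) and after quantile normalization (−0.46). In C57 the values were 5.34, 5.21 and 5.26 in males and 5.52, 5.45 and 5.27 in females, which overlapped.

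Mrpl32, which the m-AAA protease of mitochondria cuts before it joins the ribosome, read 3.15, 4.26 and 3.77 in KK-M against 4.93, 4.99 and 4.66 in C57-M. The difference of −1.13 ± 0.34 (2.19-fold, adjusted p = 0.022) was the widest of the mitochondrial set, and the KK arrays spread widely, with 5.51, 4.24 and 4.11 in KK-F. The call was lost without KK-M replicate 1 (−0.84), C57-M replicate 1 (−1.10) or C57-M replicate 2 (−1.07), and with a filter at a mean of 5 the gene was not tested.

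Mrpl52 read 7.99, 7.83 and 7.48 in KK-F against 8.38, 8.16 and 8.45 in C57-F and fell by 0.56 ± 0.14 on the log2 scale (1.48-fold, adjusted p = 0.0095), a call lost without KK-F replicate 3 (−0.42). In males it read 8.40, 8.10 and 7.98 in KK-M and 8.55, 8.56 and 8.35 in C57-M, which overlapped. Mrpl10 (−0.42 ± 0.09, adjusted p = 0.0035) and, named after its values were seen, Mrpl58, a peptidyl-tRNA hydrolase that frees stalled mitochondrial ribosomes (−0.39 ± 0.12, adjusted p = 0.022), were lower in KK-F on p alone. The large subunit genes had a median of −0.20 in KK-M v C57-M (4 of 16 above 0) and −0.15 in KK-F v C57-F (3 of 16 above 0), and after quantile normalization −0.10 and −0.21.

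**Figure D3:**
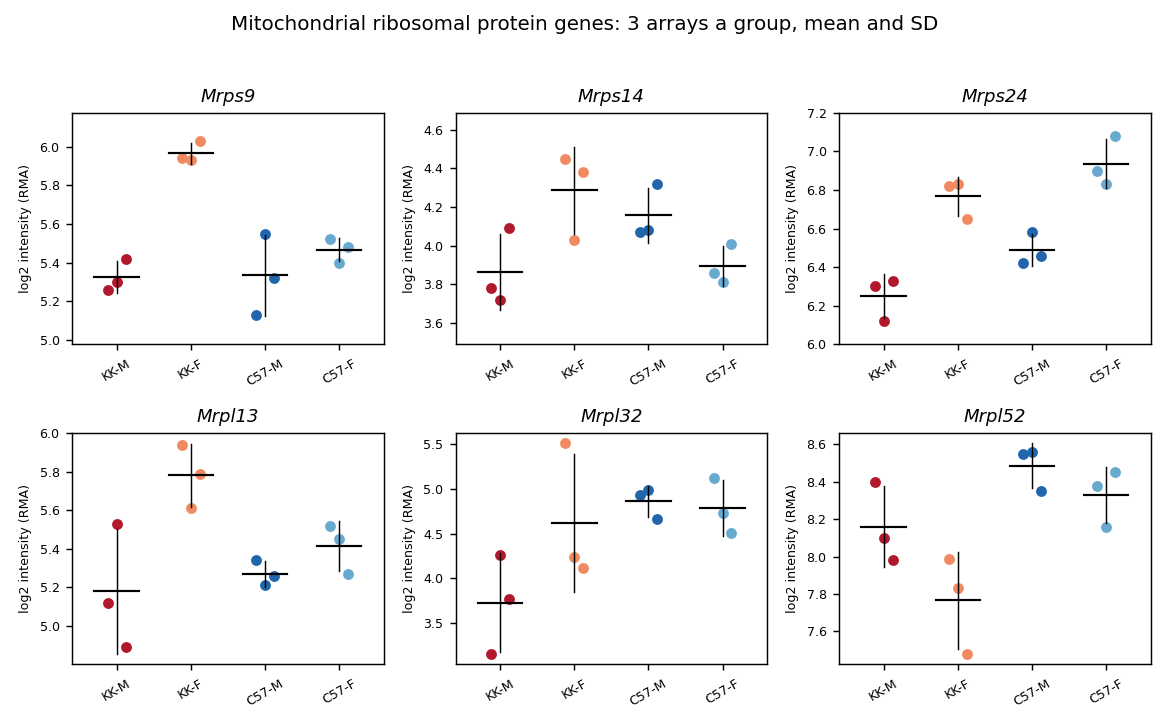
Log2 RMA intensity of 6 mitochondrial ribosomal protein genes on each of the 12 arrays (points), with the group mean (bar) and SD (line) and a separate vertical scale per gene. Mrps9 was highest in KK-F, Mrps24 was lower in males of both strains, and Mrpl32 spread widely among the KK arrays.

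Whether the strain difference itself depended on sex was tested as the difference in males minus that in females (fold of at least 1.4, adjusted p under 0.05 over all genes). It passed for 4 members, against 13.9% of all tested genes (3.81% positive and 10.1% negative). For Rpl21 it was 0.72 ± 0.11 (adjusted p = 0.0012) and for Rpl29 0.65 ± 0.11 (adjusted p = 0.0019), each being lower in KK by more in females. For Mrps14, a small subunit protein, it was −0.69 ± 0.19 (adjusted p = 0.025), and for Mrps9 −0.51 ± 0.14 (adjusted p = 0.03). The call of Mrps14 was lost without any of 5 single arrays (KK-M replicate 2, KK-F replicates 1 and 3, C57-M replicate 3 or C57-F replicate 2; −0.64 to −0.60). That of Mrps9 was lost without 9 of the 12 (all but KK-M replicate 3, C57-M replicate 1 and C57-F replicate 1; −0.53 to −0.40), under both other scalings (−0.37 and −0.46) and with no filter. Mrps14 read 3.78, 3.72 and 4.09 in KK-M against 4.07, 4.08 and 4.32 in C57-M, and 4.45, 4.03 and 4.38 in KK-F against 3.86, 3.81 and 4.01 in C57-F, at the lower end of the levels tested. The mean of Mrps14 reached 4 only in C57-M (4.16) and KK-F (4.29). High values in these groups make the term negative, so passing the filter and the result are not independent. The value for Rpl9 was 0.68 ± 0.22 (adjusted p = 0.053) and for Rpl28 0.43 ± 0.11 (adjusted p = 0.017, under the fold criterion). Over whole sets the median was 0.10 for cytosolic (20 of 30 above 0) and −0.15 for mitochondrial genes (9 of 25 above 0), against 0.00 for all genes. The mitochondrial median was 0.01 after quantile normalization. The males' and females' strain differences share no array, and both were above 0 in 12 and below 0 in 11 of the 30 cytosolic genes, and above in 3 and below in 12 of the 25 mitochondrial genes (2141 and 1939 of all 6986).

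**Figure D4:**
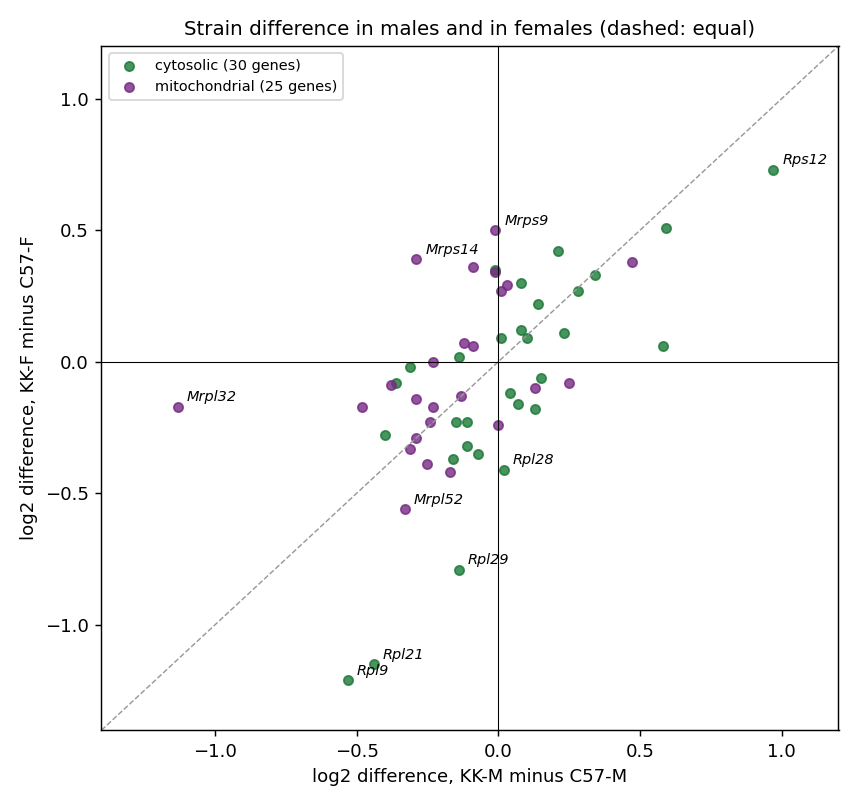
Strain difference in females (vertical axis, KK-F minus C57-F) against that in males (horizontal axis, KK-M minus C57-M) on the log2 scale for 30 cytosolic and 25 mitochondrial genes, with equal differences on the dashed line. Rps12 lies high in both sexes, and Rpl21, Rpl29 and Rpl9 lie below the line.

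Most members showed no called difference. Rpl30 in mammals also binds selenoprotein mRNAs. The study listed it among adrenal genes upregulated in KK, from a probeset not known here, while no difference was called here. Rpl30 read 4.15, 4.10 and 4.25 in KK-M, 3.94, 4.51 and 4.67 in KK-F, 4.26, 3.99 and 4.28 in C57-M and 4.11, 3.97 and 3.99 in C57-F. Its groups overlapped in all 4 comparisons, and its differences were −0.01 ± 0.15, 0.35 ± 0.15, −0.21 ± 0.15 and 0.16 ± 0.15 (adjusted p = 0.96, 0.11, 0.35 and 0.48). In KK-F v C57-F it was 0.57 (adjusted p = 0.0029) without KK-F replicate 1. Rpl8, which lies near the peptidyl transferase center, had differences of 0.01, 0.09, −0.08 and 0.00, each with an SE of 0.08. Of the 3 paralogs named with a final l, Rpl10l, which replaces Rpl10 in the mouse testis, averaged 2.65 in KK-M, 2.72 in KK-F, 2.41 in C57-M and 2.62 in C57-F. Rpl32l averaged 2.60, 2.84, 2.26 and 2.52 in these groups, and neither was tested. Rpl6l averaged 8.11, 8.04, 8.07 and 8.16.

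**Figure D5:**
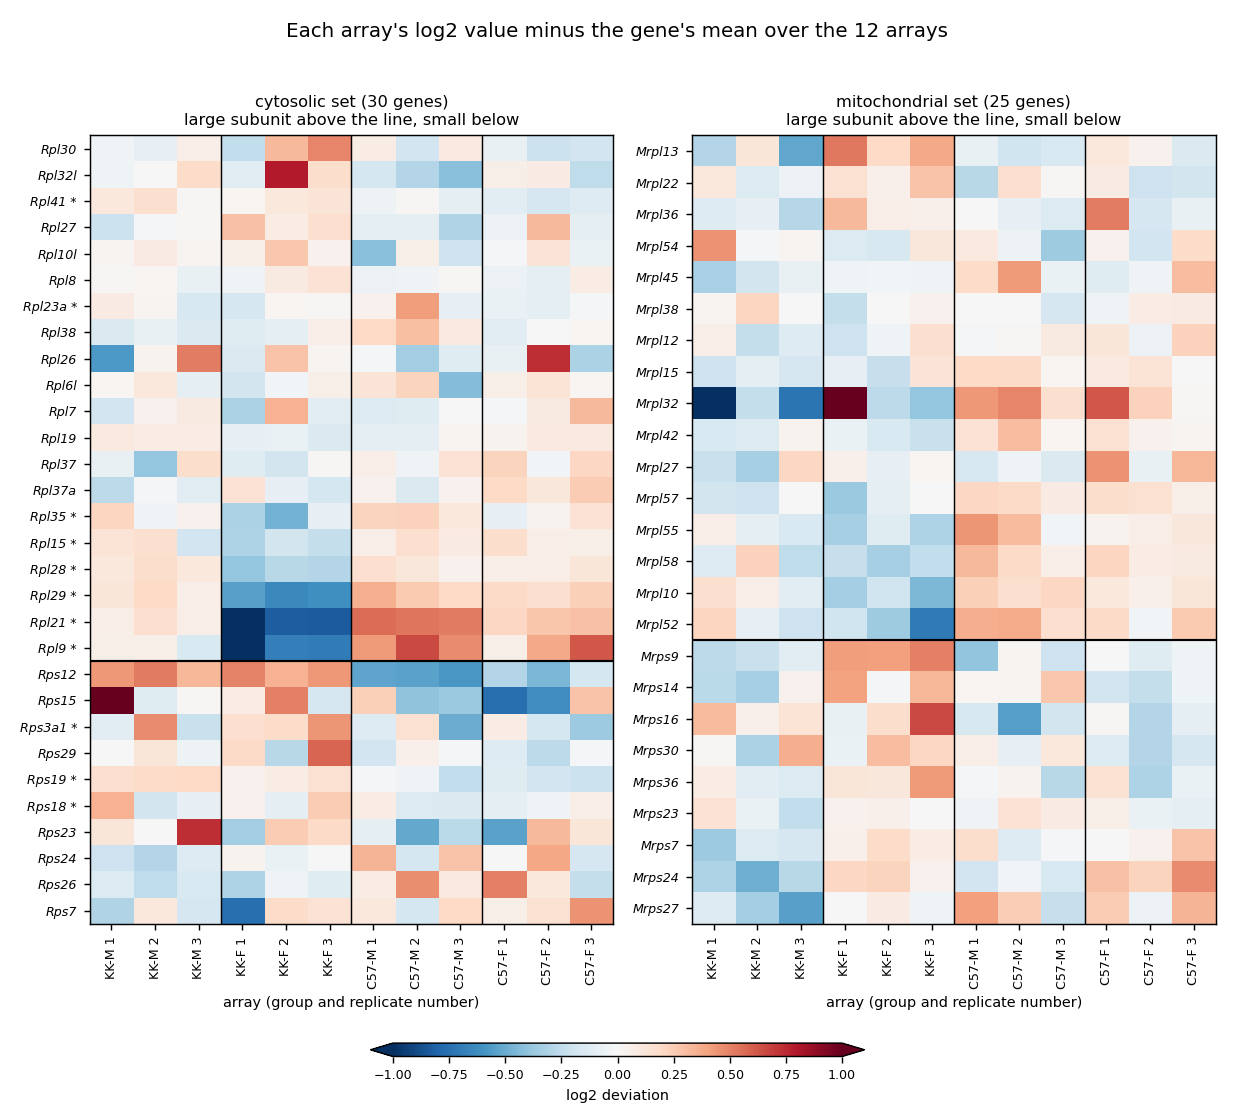
Deviation of each array from the gene's 12-array mean (log2, color scale from −1 to 1) for the 30 cytosolic genes at left and the 25 mitochondrial genes at right, ordered within each subunit by KK-F minus C57-F. Asterisks mark the 11 genes whose probeset is numbered among genes of another chromosome; the blue block in the KK-F columns holds Rpl9, Rpl21 and Rpl29.

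Genes that build and serve ribosomes were set beside the members. Of 42 tested ribosome biogenesis genes, 11 were lower and 0 higher in KK-M v C57-M (26.2%, against 20.4% of all tested genes, 13.4% lower), with a median over 44 measured of −0.30. Examples were Dimt1, an 18S rRNA methyltransferase (−0.84 ± 0.08, adjusted p = 4.2e-06), and Utp18 of the small subunit processome (−0.86 ± 0.10, adjusted p = 3.1e-05). Values did not overlap for 25 of the 44 genes lower and 0 higher, against 20.9% and 15.2% of all genes. In KK-F v C57-F 3 were lower (Nop16, Imp4 and Dimt1; 9.06% of all tested genes) and the median was −0.03. Between the KK sexes 14 were lower in males and 0 higher (11.6% and 7.27% of all tested genes) with a median of −0.25, but only 5 lower and 1 higher after quantile normalization, and 8 lower and 1 higher with median centring. The difference between the sexes in the strain effect passed for 10 genes, all negative (10.1% of all tested genes), led by Taf1d of the RNA polymerase I factor SL1 (−1.20 ± 0.21, adjusted p = 0.002), and for 3 after quantile normalization. Skeletal muscle genes were high in the same KK-M arrays, and their part in these counts was not tested.

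Of 28 tested genes of mitochondrial translation and mitoribosome assembly, 1 was higher and 5 were lower in KK-M v C57-M, and 1 and 4 in KK-F v C57-F. These are 21.4% and 17.9% of the list, close to the 20.4% and 18.6% of all tested genes. Mettl17, a mitoribosome assembly factor, rose in KK of both sexes (0.95 ± 0.12 and 0.84 ± 0.12, adjusted p = 6e-05 and 0.00015). Iars2, the mitochondrial isoleucyl-tRNA synthetase, fell in both (−0.97 ± 0.10 and −0.62 ± 0.10, adjusted p = 1.4e-05 and 0.00049). In KK-M v KK-F 3 were lower (10.7%, against 18.8% of all tested genes), among them the ribosome recycling factor Gfm2 (−0.62 ± 0.13, adjusted p = 0.0025). In that comparison 1 was lower and 1 higher after quantile normalization, and 1 lower with median centring.

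Cytosolic translation factors gave 0 DEGs of 20 in KK-M v C57-M, against 20.4% of all tested genes. There, 4 had an unadjusted limma p under 0.05, against 2048 of all 4414 genes. In KK-F v C57-F 2 of the 20 (10%) were DEGs, against 18.6% of all tested genes. These were Tpt1, whose mRNA also carries a TOP tract (−0.71 ± 0.11, adjusted p = 0.00045), and Eif5a, which relieves stalled ribosomes (−0.54 ± 0.08, adjusted p = 0.00023), both lower in KK-F. Tpt1 averaged 7.86 in KK-F against 8.57 in C57-F, and 8.72 in KK-M against 8.44 in C57-M. In KK-M v KK-F the list had 2 DEGs (10%, against 18.8% of all tested genes). Tpt1 was higher in males (0.86 ± 0.11, adjusted p = 0.00011) and Eif5b lower (−0.53 ± 0.18, adjusted p = 0.046). In C57-M v C57-F there were 0, against 7.07%. Among 12 tested regulators of ribosomal protein mRNA translation, Larp4b was lower in KK-M v KK-F (−0.54 ± 0.09, adjusted p = 0.00065), a call lost under both other scalings. Myc, a transcription factor that drives ribosome production, was lower in C57-M v C57-F (−0.73 ± 0.10, adjusted p = 0.00011), with means of 7.94 in C57-M and 8.66 in C57-F. No other gene of that list was a DEG in these 4 comparisons on the deposited scale. Its share of DEGs was thus 8.33% in each sex comparison, against 18.8% (KK) and 7.07% (C57) of all tested genes. In the strain comparisons it was 0%, against 20.4% in males and 18.6% in females.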

How the data were processed

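Adrenal RNA of the 4 groups was measured on 12 Affymetrix Mouse Gene 2.0 ST arrays, 3 per group. The authors summarized and normalized the intensities with RMA in Partek, and the deposited log2 values (16378 probesets here) were used as given. No probe-level intensity or detection call was used. The platform annotation gave 1 gene for 7358 probesets, several for 456 and none for 8564, and 15 probesets shared by a matching symbol and other genes were not used. Gene IDs of 7310 probesets matched RefSeq (GRCm38.p6), and 7277 lay on chromosomes 1 and 10 to 15, so most ribosomal protein genes were not analysed here. Promoters run from 250 bases before to 50 after the annotated start.

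The 4414 genes with a mean of at least 4 in 1 group were fitted with limma 3.58.1 in R 4.3.3 (group means as coefficients), and the code was tested on simulated data. The p-values of the 4 comparisons were adjusted together, and the strain by sex term over genes. Tables and figures were made with Python 3.11.15. Values without replicate mice limit precision to the 3 arrays. The members and gene lists were chosen with earlier results of these data known. Named genes were, per set and comparison, up to 4 DEGs in each direction, Rpl30, genes with the strain by sex term called, genes whose probesets disagreed, paralogs, and up to 3 DEGs per further list; a few others were named after their values were seen. Alternatives were other scalings, filters, fold thresholds, variance models, adjustments, probeset rules, a replicate block and leaving out each array. The other scalings were computed on the 16378 probesets here and not on whole arrays.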

Additional observations from a re-analysis of the deposited data

Results flagged for a closer look

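The strain difference depended on sex, by the test of that difference, in 4 ribosomal protein genes. They were 8.7% of the tested cytosolic and 8.33% of the tested mitochondrial genes, below the 13.9% of all tested genes. The difference in males minus that in females was 0.72 for Rpl21 and 0.65 for Rpl29, which were lower in KK by more in females. It was −0.69 for Mrps14 and −0.51 for Mrps9, whose values were higher in KK-F than in C57-F and not in KK-M. The values for Rpl21 and Rpl29 passed under every alternative run, and their probesets are among the 11 numbered with genes of another chromosome. Mrps14 lost its call without any of 5 arrays (−0.64 to −0.60), and Mrps9 without any of 9 arrays, under either other scaling and with no filter on low values. Mrps14 entered the test through its means in KK-F and C57-M alone, the groups whose high values make its term negative.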

How the results depend on the processing

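With no fold criterion the cytosolic counts were 5, 9, 5 and 1 (strain in males, strain in females, sex in KK, sex in C57, the order used below; 2, 4, 3 and 0 as reported) and the mitochondrial counts 5, 6, 6 and 1 (1, 2, 3 and 0 as reported). Of all 4414 tested genes, 1600, 1457, 1523 and 730 then passed (902, 822, 831 and 312 as reported). A 1.2-fold criterion gave 5, 8, 5 and 1 cytosolic and 5, 6, 6 and 1 mitochondrial DEGs, against 1555, 1422, 1486 and 695 of all 4414. In KK-M v C57-M renewed quantile normalization gave 1 cytosolic and 2 mitochondrial DEGs (821 of all 4419 tested genes) and a mitochondrial median of −0.09. A filter at a mean of 5 left 0 mitochondrial DEGs (788 of all 3356), as Mrpl32 was then not tested. In KK-F v C57-F quantile normalization and median centring each gave 1 mitochondrial DEG (828 of all 4419 and 817 of all 4416), and centring a median of −0.15. In KK-M v KK-F the cytosolic median was 0.07 (quantile) and 0.09 (centring), and the mitochondrial median 0.02 and −0.02. Leaving out the 11 cytosolic genes numbered among genes of another chromosome, a choice made after seeing the data, gave 1, 1 and 0 cytosolic DEGs in the first 3 comparisons, medians of −0.06 in KK-M v KK-F and −0.13 in C57-M v C57-F, and 2 strain by sex calls instead of 4. The causes were not tested.

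Leaving out 1 array at a time gave 1 to 2, 4 to 5, 3 and 0 cytosolic DEGs, 0 to 3, 0 to 4, 3 to 4 and 0 to 1 mitochondrial DEGs, and 2 to 5 strain by sex calls. Over all genes these fits gave 842 to 1001, 812 to 849, 788 to 905 and 300 to 340 DEGs, and 477 to 683 strain by sex calls. Cytosolic medians ranged from −0.01 to 0.04, −0.10 to 0.03, −0.02 to 0.06 and −0.03 to 0.03, and mitochondrial medians from −0.21 to −0.15, −0.12 to −0.04, −0.18 to −0.09 and −0.03 to 0.09. Rpl30 in KK-M v C57-M, −0.01 as reported, ranged from −0.11 to 0.04 and was 0.02 without KK-M replicate 2, 0.03 without C57-M replicate 1 and 0.04 without C57-M replicate 3. Of 460 values for 19 called single gene results, 426 kept call and direction, 34 lost the call and 0 reversed; 11 results kept it throughout. With the replicate number as a block, the 8 DEG counts were as reported and the strain by sex calls numbered 5; deviations of same-numbered arrays correlated at r from −0.1 to 0.12 over 18 pairs, so the numbers were not taken to pair arrays, and 5 of 12 correlated best with their own number.

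All-gene DEG shares that were higher, as deposited, after quantile normalization and with centring, were 51.3%, 44.0% and 42.6% in KK-F v C57-F, 61.2%, 61.4% and 70.0% in C57-M v C57-F, and 27.5%, 53.2% and 37.0% for the strain by sex term. Repeat arrays of a pool do not show variation between mice, and 8 of the 55 members were too dim to be tested.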
